A study of Mus musculus with 48 samples.

Results

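Ionotropic glutamate receptors are ligand-gated cation channels built from 4 subunits, and the 9 genes described here encode subunits of the AMPA family (Gria1, Gria2, Gria3 and Gria4), the NMDA family (Grin1, Grin2a and Grin2b) and the kainate family (Grik2 and Grik5). They were chosen by symbol, and all 9 were found among the 54331 genes of the deposited tables. The tables hold 48 mouse RNA-seq libraries made to study RNA in the axons of retinal ganglion cells, which leave the eye in the optic nerve and end in 2 brain targets, the lateral geniculate nucleus (LGN) and the superior colliculus (SC). In EU libraries the RNA had taken up 5-ethynyl uridine, a label injected into the vitreous of the eye, and was pulled down with biotin and streptavidin from tissue pooled over animals. In TRAP libraries the RNA was bound to tagged ribosomes (translating ribosome affinity purification), and the promoter or Cre that drives the tag is not given in the sources used here. EU libraries from naive wild-type mice came from SC at P10 (n = 3), P14 (n = 5) and 8 weeks (n = 3), from SC after labelling at P10 and a further 4 days of chase (n = 3), and from LGN at P14 (n = 2). TRAP libraries from naive wild-type mice came from SC at P10 (n = 3) and P14 (n = 5) and from LGN at P14 (n = 3). Naive mice labelled fmr1ko gave SC EU, SC TRAP and eye FACS libraries at P14 (n = 3 each), and axotomized mice labelled sarm1ko gave SC EU libraries at P14 with a 7-day chase (n = 3). Wild-type eyes at P14 gave immunopanned retinal ganglion cells without EU capture (n = 3), immunopanned cells with EU capture (n = 3) and cells sorted by FACS (n = 3).

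AMPA receptors carry most fast excitatory transmission, and the Gria2 subunit, when its RNA is edited, makes the channel nearly impermeable to calcium. NMDA receptors need glutamate, glycine and depolarisation to open. Grin1 is their obligatory subunit, Grin2b predominates early in development and Grin2a becomes more abundant as synapses mature. Grik2 forms kainate receptors by itself or with Grik5, a high-affinity subunit that needs a partner such as Grik2 to reach the membrane. These receptors are best known from dendrites, and presynaptic forms, NMDA and kainate receptors among them, regulate transmitter release from axon terminals.

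All 9 genes code for the same kind of channel gate, yet their transcripts differ in base composition, a property set beside some of the values below. For 7 of them a line gives coding sequence from GENCODE M21 on GRCm38, 75 bases around the end of the third membrane segment, with the 27 bases of the motif shared by all 3 families in capitals.
Gria1: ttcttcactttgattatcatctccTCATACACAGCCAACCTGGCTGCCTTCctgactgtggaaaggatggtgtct
Gria2: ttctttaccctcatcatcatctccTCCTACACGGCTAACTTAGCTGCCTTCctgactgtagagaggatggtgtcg
Gria3: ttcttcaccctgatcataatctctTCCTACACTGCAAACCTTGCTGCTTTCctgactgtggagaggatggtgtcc
Gria4: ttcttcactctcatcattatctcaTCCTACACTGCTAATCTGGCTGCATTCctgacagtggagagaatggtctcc
Grin1: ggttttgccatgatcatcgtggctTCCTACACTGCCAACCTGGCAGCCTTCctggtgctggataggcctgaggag
Grik2: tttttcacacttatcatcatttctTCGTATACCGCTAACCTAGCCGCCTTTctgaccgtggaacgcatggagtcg
Grik5: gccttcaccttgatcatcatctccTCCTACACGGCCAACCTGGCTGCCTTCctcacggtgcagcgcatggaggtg
Grik5 ended 8 of the 9 motif codons in G or C and Grin1 7, while Gria3 and Gria4 ended 4 of them so. A like contrast held over the whole coding sequence, where 80.3% of the third codon positions were G or C in Grik5 and 71.2% in Grin1 against 47.2% in Gria4, 48.4% in Gria2, 49.0% in Grik2 and 49.4% in Gria3. Over the longest transcript the GC content was 61.7% for Grik5 and 59.4% for Grin1, above 97.9% and 94.6% of protein-coding genes. Gria2 (36.8%), Grik2 (37.9%) and Gria3 (39.8%) lay at the other end, above 3.3%, 5.4% and 10.7% of protein-coding genes. Gria1 (48.5%), Grin2b (45.7%), Grin2a (44.8%) and Gria4 (44.3%) lay nearer to the median of 48.7%.

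On GRCm38 the AMPA genes lie at chr11:57011387-57330244 (Gria1, plus strand), chr3:80681450-80802835 (Gria2, minus), chrX:41400854-41678601 (Gria3, plus) and chr9:4417896-4796234 (Gria4, minus). The NMDA genes lie at chr2:25291181-25319187 (Grin1, minus), chr16:9567898-9995560 (Grin2a, minus) and chr6:135713233-136173511 (Grin2b, minus). The kainate genes lie at chr10:49094833-49788766 (Grik2, minus) and chr7:25009849-25072346 (Grik5, minus). Each is annotated as protein coding, and values are per gene, summed over exons of all its transcripts.

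The median library held 22212787 estimated counts, the smallest 2558141 and the largest 48263706. Sarm1 had 19.4, 42.1 and 19.9 CPM (counts scaled by the TMM-normalised library size) in P14 SC EU replicates 3 to 5 and 3.32, 3.22 and 2.62 CPM in the sarm1ko libraries (edgeR adjusted p = 0.00229). Fmr1 did not separate the fmr1ko label: in SC EU it was higher under the label (9.93, 4.91 and 13.2 against 1.22, 1.64 and 0.452 CPM, edgeR adjusted p = 0.0686), and in TRAP and FACS libraries the groups overlapped, so these are called libraries labelled fmr1ko. The library labelled fmr1ko SC TRAP replicate 2 stood apart, with 62863 TPM (transcript abundance per length, scaled to an equal sum in each library) summed over 10 rod photoreceptor markers against 50.9 and 69.8 in the other two. The eye FACS libraries held 56614 to 96570 TPM of rod markers and 118 to 172 TPM of 12 retinal ganglion cell markers, while wild-type P14 SC EU libraries held 3350 to 5678 TPM of the latter. Immunopanned cells held 30.7 to 95.9 TPM of ganglion cell markers without EU capture and 92.3 to 366 TPM with it, beside 72.5 to 7498 and 2972 to 65336 TPM of rod markers, so eye groups labelled as ganglion cells held little of that cell type's markers. SC and LGN libraries also carried markers of resident cells, with 797 to 23673 TPM of 8 oligodendrocyte markers in all but the replicate that stood apart.

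Across the receptor genes, Grin1 had the highest level per length in most brain groups, and no eye library held more than 11.9 TPM of any subunit. Levels in this and the next paragraphs are TPM, mean ± SD over the libraries of a group. Grin1, which every NMDA receptor contains, was at 173 ± 27.6 in SC EU at P10, 138 ± 43.1 after the 4-day chase, 246 ± 196 at P14 and 49.1 ± 39.8 at 8 weeks. The 5 P14 libraries held 315, 558, 142, 136 and 78.3 TPM, replicates 1 and 2 being above the others. It was 36.2 ± 25.2 in SC EU labelled fmr1ko and 43.4 ± 23.4 in the sarm1ko libraries. In ribosome-bound RNA Grin1 was at 97.9 ± 33.4 in SC at P10, 230.0 ± 286 at P14, 69.7 ± 63.2 under the fmr1ko label and 542 ± 292 in LGN, and LGN EU stood at 334 ± 240. The 4 eye groups had means from 0.22 (FACS) to 2.37 (immunopanned with EU capture), and 35 of 36 brain libraries were above all 12 eye libraries. Of the 14 neighbouring pairs in the order of group means 1 was separated without overlap, SC EU labelled fmr1ko over immunopanned cells with EU capture. Neighbouring groups therefore did not differ beyond their spread elsewhere in that order.

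Grin2b, the early NMDA subunit, had its highest mean in SC EU at P10. The 3 P10 libraries held 111, 61.2 and 152 TPM (108 ± 45.3), all above the 8-week libraries at 10.2, 8.12 and 21.5 (13.3 ± 7.22). Between them stood the chase (40.4 ± 15.2) and P14 (47.2 ± 24.5), with 26.9 ± 21.4 under the fmr1ko label and 12.9 ± 6.96 in the sarm1ko libraries. TRAP levels were 13.5 ± 14.2 at P10, 10.1 ± 6.4 at P14 and 67.3 ± 61.0 under the fmr1ko label, where replicates 1 and 3 held 119 and 83 TPM and the replicate that stood apart held 0. LGN had 73.4 ± 21.7 in EU and 21.9 ± 11 in TRAP libraries. Grin2a, the subunit of mature synapses, was at 9.38 ± 3.64 in SC EU at P10, 16.2 ± 2.98 after the chase, 35.6 ± 28.2 at P14 and 7.69 ± 4.2 at 8 weeks. Its level was 69.9 ± 13.9 in LGN EU and 2.52 ± 1.93 in LGN TRAP, and the SC TRAP means were 0.846 ± 0.623 at P10, 1.83 ± 1.34 at P14 and 5.45 ± 5.96 under the fmr1ko label. It stood at 1.73 ± 0.578 in SC EU labelled fmr1ko and 7.06 ± 3.93 in the sarm1ko libraries. In eye cells 8 of 12 libraries had a Grin2a count of 0 and the highest held 0.094 TPM, while for Grin2b the highest eye library held 1.54 TPM. For both genes the number of estimated counts that 1 TPM stands for varied 13.4-fold for Grin2b and 14.8-fold for Grin2a between SC and LGN libraries, against 1.24-fold for Gria1, so their TPM and CPM can give different orders.

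Among AMPA subunits, Gria1 had the most even means between SC EU groups, and Gria2 spread widely among P14 libraries. Gria1 was at 74.9 ± 15.6 TPM at P10, 78.1 ± 16.2 after the chase, 93.3 ± 29.8 at P14, 63.2 ± 9.89 at 8 weeks, 64.1 ± 30.4 under the fmr1ko label and 55.5 ± 33.5 in the sarm1ko libraries. In TRAP it was 14.1 ± 10.6 at P10, 48.6 ± 19.2 at P14 and 63.3 ± 55.2 under the fmr1ko label, and LGN had 44.6 ± 16.4 in EU and 20.7 ± 16.2 in TRAP. Gria2, the subunit that limits calcium entry, had 313, 74.8, 7.36, 2.96 and 29.6 TPM in the 5 P14 SC EU libraries (85.5 ± 130.3). That range took in every other SC EU library, with 44.1 ± 25.5 at P10, 96.9 ± 5.89 after the chase, 75.3 ± 64.2 at 8 weeks, 36.2 ± 11.1 under the fmr1ko label and 58.4 ± 27.9 in the sarm1ko libraries. TRAP levels of Gria2 were 11.5 ± 7.65 at P10, 22.5 ± 15.4 at P14 and 48.2 ± 42.2 under the fmr1ko label, and LGN held 163 ± 105 in EU and 7.52 ± 10.6 in TRAP.

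Gria3 and Gria4, the other two AMPA subunits, followed Gria2 at lower levels. Gria3 was at 5.28 ± 1.75 TPM in SC EU at P10, 11.1 ± 1.82 after the chase, 17.3 ± 24.7 at P14, 10.8 ± 9.37 at 8 weeks, 7.8 ± 3.76 under the fmr1ko label and 9.44 ± 5.09 in the sarm1ko libraries. TRAP levels were 1.24 ± 0.941, 4.57 ± 2.29 and 5.85 ± 5.15 at P10, P14 and under the fmr1ko label. Both genes had their highest mean in LGN EU, where Gria3 held 111 and 30.1 and Gria4 71.5 and 55.4. In LGN TRAP they stood at 3.07 ± 4.47 and 3.47 ± 4.96. Gria4 had SC EU means of 6.03 ± 3.53 at P10, 19.9 ± 14.5 after the chase, 27.3 ± 47.0 at P14, 20.01 ± 16.6 at 8 weeks, 8.81 ± 5.29 under the fmr1ko label and 5.78 ± 1.79 in the sarm1ko libraries. Its TRAP means were 2.39 ± 2.27, 5.16 ± 2.87 and 13.9 ± 10.9 at P10, P14 and under the fmr1ko label. Eye libraries reached 11.9 TPM of Gria3, 8.29 of Gria2, 4.66 of Gria4 and 3.4 of Gria1, each in immunopanned cells with EU capture, so 9 of 36 brain libraries were above all eye libraries for Gria3 and 34 of 36 for Gria1. Over the 36 brain libraries log2(TPM + 1) of Gria3 followed that of Gria4 (Pearson r = 0.92) and that of Gria2 (r = 0.90), a description over libraries that share groups and base composition.

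The kainate subunits had their highest means in different groups. Grik5, the partner-dependent subunit, had 56.4, 29.8 and 45.3 TPM in SC EU at P10 (43.8 ± 13.4), all above the 5 P14 libraries at 7.08, 15.2, 22.4, 14.4 and 12.6 (14.3 ± 5.52). It was 21.5 ± 3.67 after the chase, 8.11 ± 9.58 at 8 weeks, 9.9 ± 7.7 under the fmr1ko label and 4.66 ± 2.84 in the sarm1ko libraries. TRAP levels were 36.6 ± 37.1 at P10, 15.5 ± 12.4 at P14, 21.2 ± 18.3 under the fmr1ko label and 41.7 ± 33.9 in LGN, against 26.6 ± 13.5 in LGN EU. Grik2, the subunit that forms channels alone, had its highest mean in the sarm1ko libraries at 15.1, 9.2 and 11.9 TPM (12.05 ± 2.93), all above the chase libraries next in order at 9.17, 7.23 and 7.15 (7.85 ± 1.15). Its other SC EU means were 5.86 ± 2.6 at P10, 5.61 ± 4.64 at P14, 6.97 ± 6.3 at 8 weeks and 2.54 ± 1.06 under the fmr1ko label, with 6.89 ± 3.84 in LGN EU. TRAP means of Grik2 ran from 1.1 ± 0.899 (SC P10) through 2.17 ± 1.87 (SC P14) and 2.18 ± 2.56 (LGN) to 2.77 ± 3.5 under the fmr1ko label. Eye libraries held up to 7.84 TPM of Grik5 and 5.86 TPM of Grik2.

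**Figure D1:**
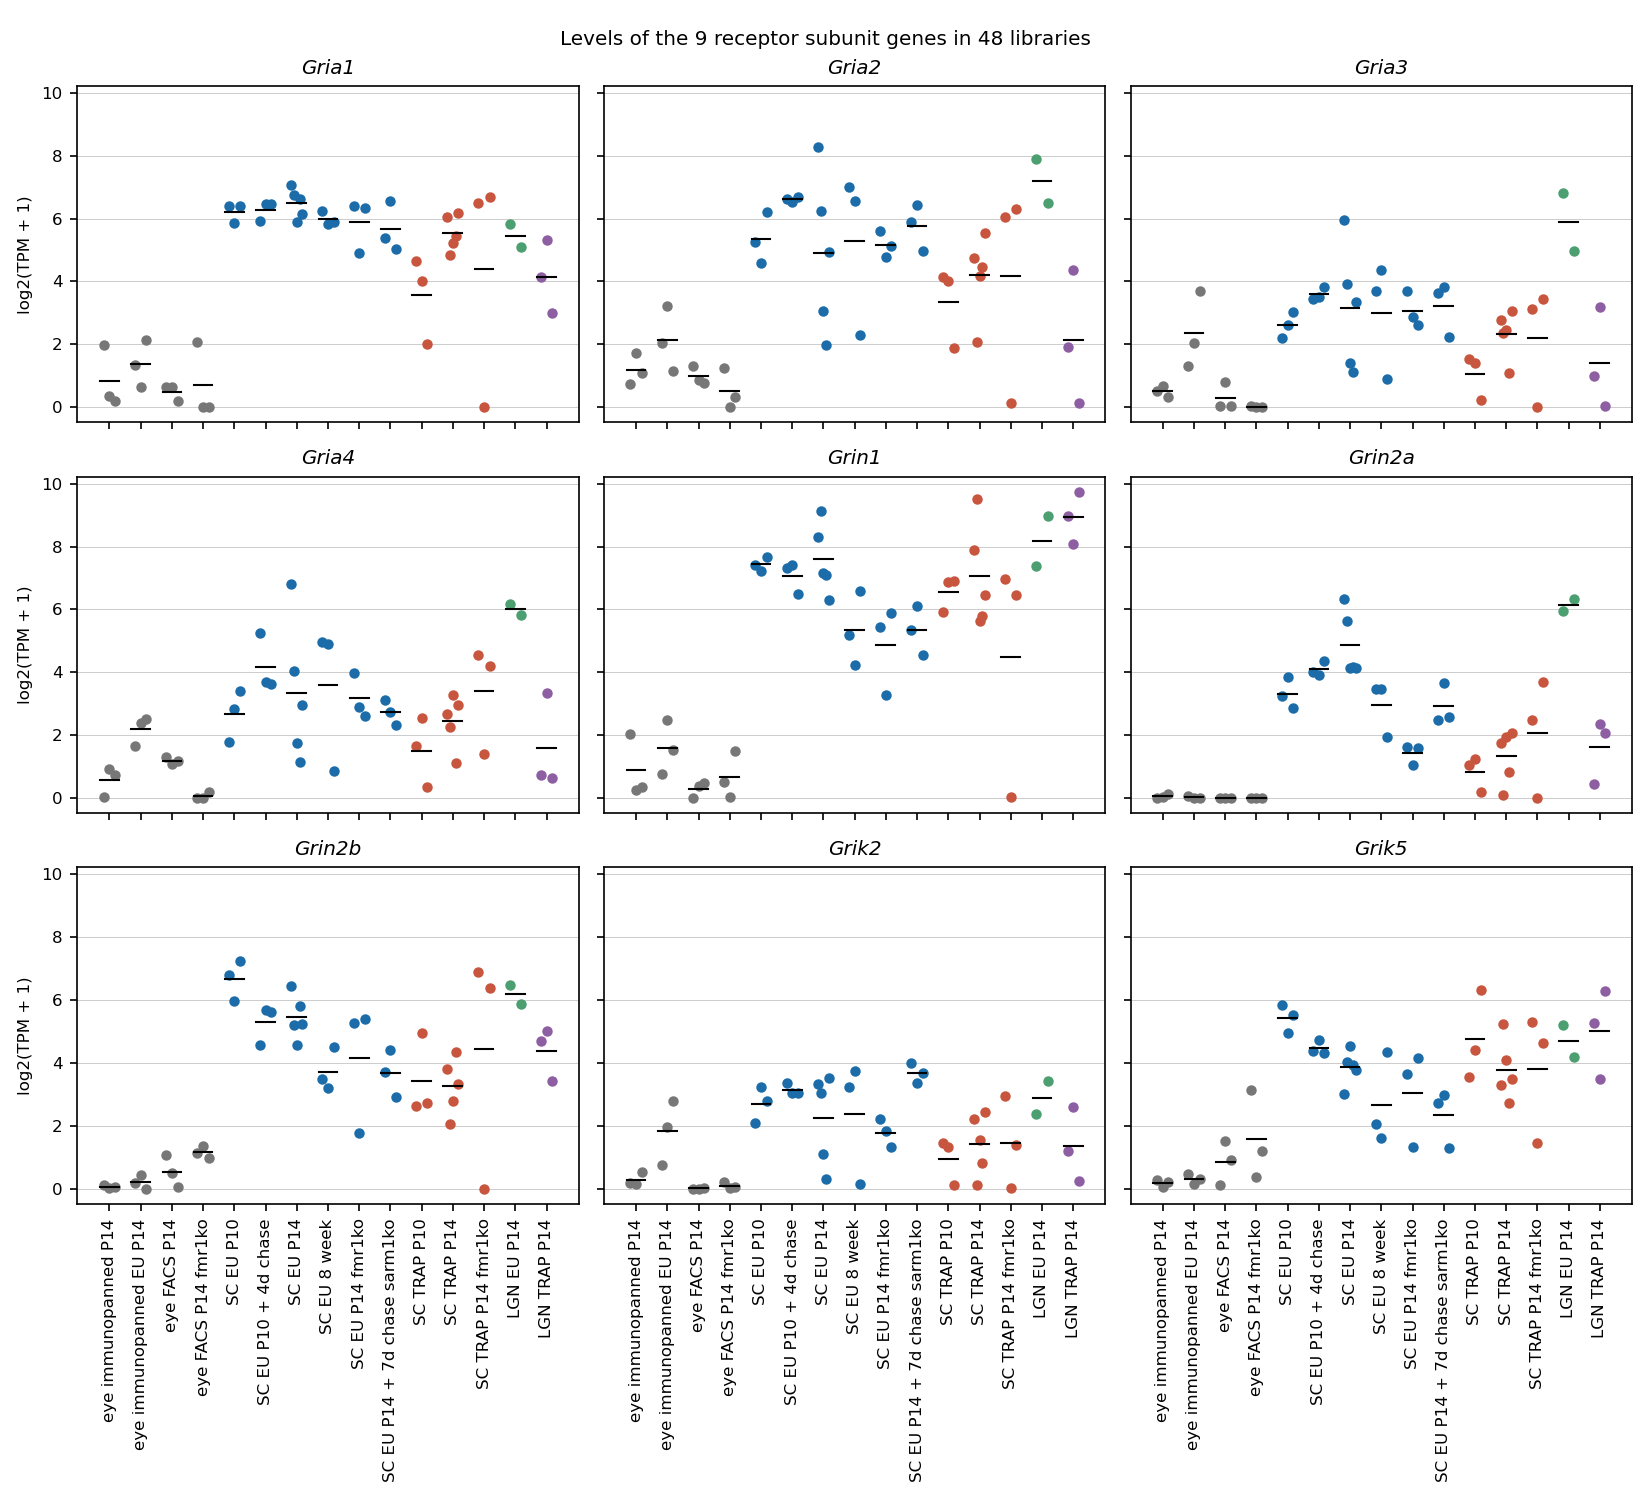
Level of each of the 9 genes as log2(TPM + 1) on the vertical axis in the 15 groups on the horizontal axis, with 1 point per library and a bar at the group mean. Grin1 lies above 5 TPM in 35 of 36 brain libraries and below it in all 12 eye libraries, while P14 SC EU libraries spread from 2.96 to 313 TPM of Gria2.

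Across the SC and LGN libraries the levels of most subunits moved with the base composition of the library. A GC lean was computed for each library over 9928 expressed protein-coding genes as the log2 level of those above the upper quartile of GC content minus that of those below the lower quartile, relative to the mean over SC and LGN libraries. A positive value means relatively more signal from GC-rich transcripts. Over the 36 SC and LGN libraries log2(TPM + 1) of Gria2 had r = -0.70 with the lean (Spearman rho = -0.74, each with permutation p = 1e-05, the smallest that 100000 permutations can give, adjusted p of r over 9 genes 4.5e-05). Without the 2 libraries of most extreme lean r was -0.66, and within the 20 SC EU libraries it was -0.77. The other AMPA subunits of lower GC content and Grik2 gave r = -0.70 for Gria3, -0.71 for Gria4 and -0.66 for Grik2 (rho -0.72, -0.72 and -0.65, permutation p from 1e-05 to 5e-05). The GC-rich subunits leaned the opposite way, Grik5 with r = 0.61 (permutation p = 9e-05, rho = 0.54, permutation p = 0.00098) and Grin1 with r = 0.49 (permutation p = 0.0023, rho = 0.46, permutation p = 0.0052). Within SC EU libraries these values were 0.72 and 0.48. Gria1 (r = -0.15, rho = -0.19, permutation p = 0.38 and 0.28) and Grin2b (r = 0.05, rho = -0.01, permutation p = 0.75 and 0.93) showed no detectable relation over all 36 libraries, and Grin2a had r = -0.38 (permutation p = 0.021, adjusted p = 0.027, rho = -0.36, permutation p = 0.034) over all libraries and -0.01 within SC EU. Within 10 SC TRAP libraries, leaving out the replicate that stood apart, r was -0.85 for Grin2a, -0.79 for Gria2, -0.58 for Gria4 and Grik2, -0.52 for Grin2b, -0.48 for Gria1 and -0.47 for Gria3. Grin1 and Grik5 had 0.69 and 0.31 there, and Grin2b and Gria1 had 0.48 and 0.20 within SC EU, the opposite sign to that in SC TRAP. Libraries of a group share a condition and are not independent, so these p-values are too small. The lean differed between groups that are compared below, at 1.35, 1.61 and 0.15 in P14 SC EU replicates 3 to 5, -1.39 to -1.15 in sarm1ko, 0.03 to 0.77 at P10, -2.02 and -0.44 in LGN EU and 0.38 to 1.77 in LGN TRAP. Values after removal of a GC trend over all genes, a setting chosen after seeing the data, are given beside the results they touch.

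**Figure D2:**
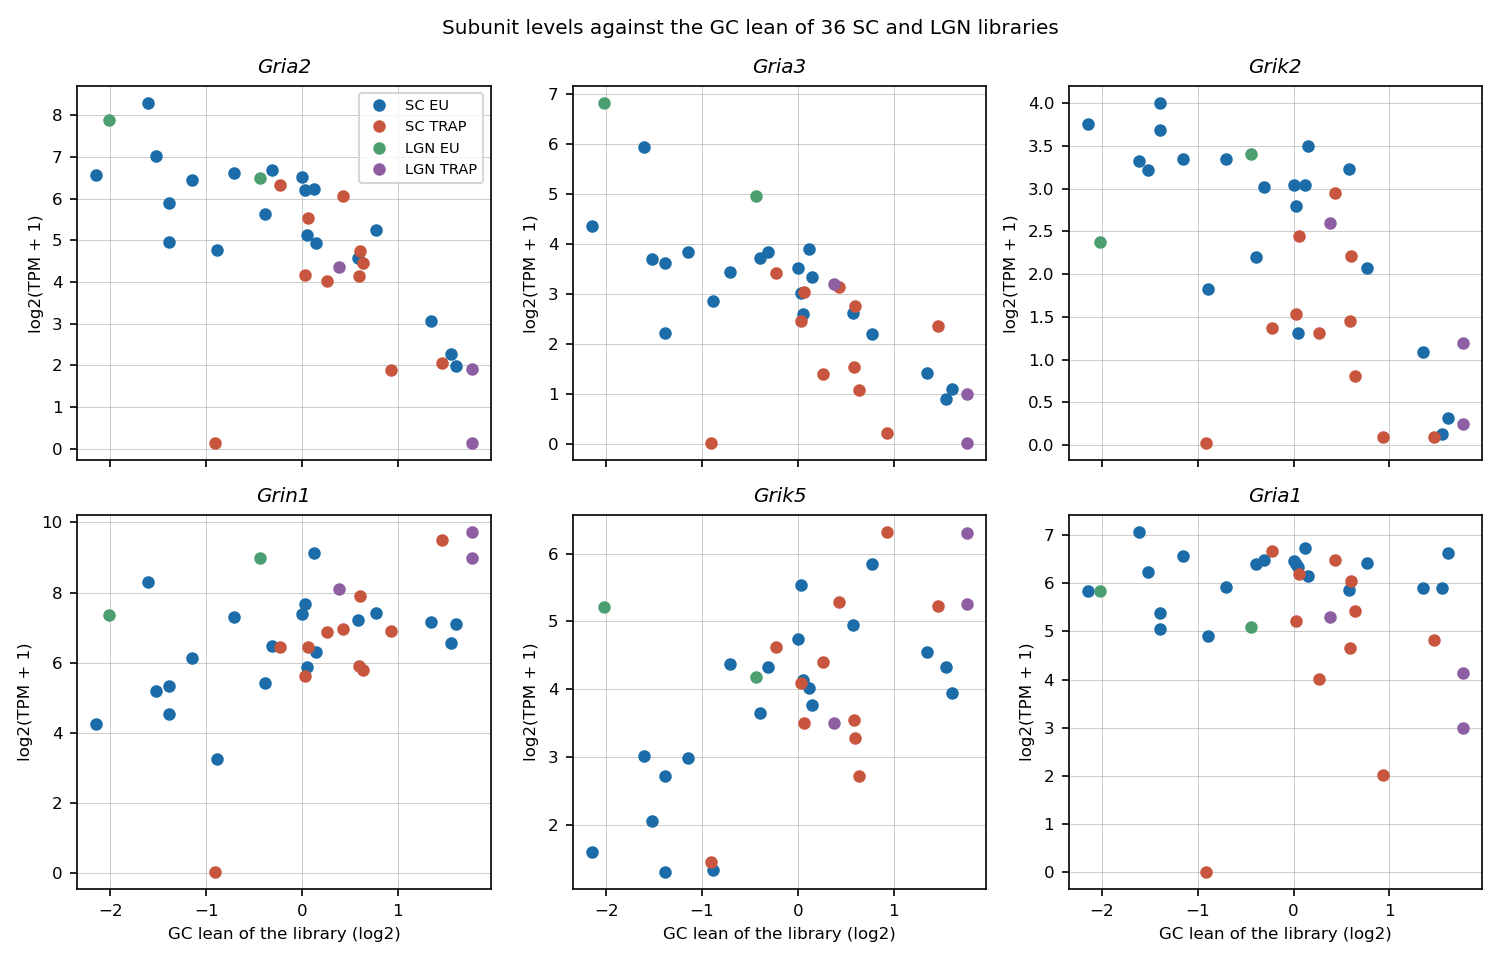
log2(TPM + 1) of 6 subunits on the vertical axis against the GC lean of the library (log2) on the horizontal axis, 1 point for each of 36 SC and LGN libraries coloured by region and capture. Gria2, Gria3 and Grik2 fall with the lean (r = -0.70, -0.70 and -0.66), Grik5 and Grin1 rise with it (r = 0.61 and 0.49), and Gria1 shows no slope (r = -0.15).

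To find which receptor RNAs were more abundant in labelled RNA of SC than of eye cells, P14 SC EU replicates 3 to 5 were compared with immunopanned EU libraries. The 2 sides are called axonal EU and somal EU, names that do not say which cells the RNA came from. Levels in this and later comparisons are CPM, which serves differences of 1 gene between libraries, and folds are log2 values ± SE with edgeR adjusted p. All NMDA subunits, Gria1 and Grik5 were higher in axonal EU and no subunit was lower, against 11% of 15540 tested genes called higher and 11.4% called lower. Grin1 stood at 228, 272 and 158 CPM in axonal EU and 2.12, 15.9 and 12.5 CPM in somal EU. The groups did not overlap, and the log2 fold change was 4.43 ± 0.80 (adjusted p = 0.00733). Grin2b had 114, 183 and 164 against 0.0371, 5.71 and 0 CPM (6.34 ± 1.75, adjusted p = 0.0299), and Grin2a had 11.3, 11.6 and 41.9 against 0.519, 0 and 0 CPM (6.81 ± 1.81, adjusted p = 0.0266). Both calls were lost without P14 replicate 3, 4 or 5, with adjusted p from 0.07 to 0.11. For Gria1 the levels were 177, 325 and 233 against 6.97, 6.25 and 32.2 CPM (4.01 ± 0.78, adjusted p = 0.00976). Grik5 had 41.8, 30.6 and 27.1 against 1.04, 0.731 and 1.51 CPM (4.92 ± 0.90, adjusted p = 0.00783), a call lost without P14 replicate 3 (4.75, adjusted p = 0.066). Folds of the other subunits were 0.26 (Gria2), -1.45 (Gria4), -2.37 (Grik2) and -2.42 (Gria3), none called. Grin2a and Grin2b passed the filter on low counts only through the axonal libraries, so both had to be higher there, and the number called supports nothing. The median over the 9 genes was 4.01 against 0.11 over all tested genes, with the same limit.

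With the GC trend removed Grin1 stood at 1.81 (adjusted p = 0.13) and Grik5 at 2.13 (adjusted p = 0.079), and Gria1, Grin2a and Grin2b were called. Markers of other cells moved in the same comparison: all 10 rod markers were lower in axonal EU, all 8 oligodendrocyte markers and 6 of 10 tested midbrain neuron markers were higher, and 3 of 10 tested ganglion cell markers were higher. Summed oligodendrocyte markers were 6325 to 10440 TPM in P14 SC EU and 10.1 to 30.4 TPM in immunopanned EU, and their part in the result was not tested. In bulk samples fewer cells of a type and less RNA per cell cannot be told apart.

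Related glutamate genes moved in part with the 9. Whether they passed the filter on low counts through the axonal libraries alone was not checked. Those near 0 in somal EU may have had to be higher, so the numbers called support nothing. Of 9 other ionotropic subunits 4 were higher and 0 lower (median 3.82), among them Grin2c (11.65, adjusted p = 0.00773), an NMDA subunit, and Grid1 (5.90, adjusted p = 0.0216), a delta receptor. Auxiliary AMPA subunits gave 3 higher and 1 lower of 14, with Cnih2 at 5.54 (adjusted p = 0.00307), Shisa7 at 7.71 (adjusted p = 0.0185) and Cacng8 at 9.27 (adjusted p = 0.0216). Among 8 anchoring and trafficking partners only Dlg3, a postsynaptic scaffold, was called (2.58, adjusted p = 0.0251). Metabotropic receptors gave 4 higher and 1 lower of 8, Grm2 and Grm3 being higher (12.28 and 10.63) and Grm6, the receptor of ON bipolar cells, lower (-7.31). Of 6 glutamate transporters 1 was lower, the vesicular transporter Slc17a7 (-4.57, adjusted p = 0.0206).

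SC TRAP libraries, titled axon-TRAP, were set against FACS-sorted eye cells. This gave 7 of 9 subunits higher and 0 lower, against 22.2% of 17186 tested genes higher and 22.4% lower. The cells that carry the tag are not given, and wild-type P14 SC TRAP libraries held 4207.5 to 21066 TPM of oligodendrocyte markers. Axonal TRAP is therefore only a name for these libraries. Of the 9 genes 6 (Gria3, Grin1, Grin2a, Grin2b, Grik2 and Grik5) passed the filter on low counts only through the TRAP libraries, so these had to be higher there, and the number called supports nothing. The comparison shares no library with the EU comparison. Grin2a, at 34.0, 10.9 and 30.6 CPM in TRAP replicates 3 to 5, had 0, 0 and 0.0312 CPM in eye cells, a total of 2066 against 1 counts. Scaled by library size the ratio of those totals was 3280 with a 95% counting interval from 588 to 130000. Grin1 stood at 143, 189 and 205 against 0, 0.716 and 1.15 CPM (8.19 ± 1.23, adjusted p = 0.00272). Gria1, at 156, 213 and 251 against 2.42, 2.09 and 0.779 CPM, had a log2 fold change of 6.86 ± 0.55 (adjusted p = 0.000283). Here Gria2 was called too, with 57.1, 101.1 and 138 against 4.44, 2.91 and 2.93 CPM (4.85 ± 0.46, adjusted p = 0.000515), as was Grik2 with 6.50, 2.64 and 11.5 against 0, 0 and 0.125 CPM (7.4 ± 1.7, adjusted p = 0.0109). The 2 groups did not overlap for these 5 genes, but Grin1, Grin2a and Grik2 passed the filter only through TRAP. The share of all genes without overlap is not given here. Grin2b held 31.7, 152 and 65.7 against 6.76, 0.184 and 0.436 CPM (5.07 ± 1.42, adjusted p = 0.0231), a call lost without TRAP replicate 4 (4.33, adjusted p = 0.077) or 5 (5.34, adjusted p = 0.051). Grik5, at 44.8, 18.1 and 23.1 against 0.253, 4.59 and 2.93 CPM, had 3.47 ± 1.0 (adjusted p = 0.0258), lost without TRAP replicate 3, 4 or 5 or FACS replicate 3 (adjusted p from 0.051 to 0.085), with the GC trend removed (1.68, adjusted p = 0.15) and with the replicate block (3.82, adjusted p = 0.075). Gria3 (3.99 ± 1.41, adjusted p = 0.0524) and Gria4 (1.94 ± 0.72, adjusted p = 0.0604) were not called. RLE size factors moved the median of all genes by 0.18, and Gria3 (4.18, adjusted p = 0.045) and Gria4 (2.10, adjusted p = 0.045) were then called as well.

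In that comparison 8 of 9 other ionotropic subunits were higher and 0 lower, led by Grin2c (12.92), Grin3a (7.73) and Grid1 (4.10). Whether genes of the related lists passed the filter through the TRAP libraries alone was not checked. Those near 0 in eye cells may have had to be higher, so the numbers called support nothing. Auxiliary subunits gave 9 of 14 higher, among them Cacng2 (stargazin, 7.10) and Cnih3 (3.64), and 5 of 8 metabotropic receptors were higher, with Grm5 at 11.89 and Grm4 at 9.14. Anchoring partners split, Dlg4 (PSD-95) being lower (-3.87, adjusted p = 0.000252) and Dlg2 higher (1.22, adjusted p = 0.0351). The vesicular transporters split too, with Slc17a6, used by ganglion cells, at 8.59 and Slc17a7 at -10.53. All 10 rod markers were lower in TRAP and 9 of 11 tested ganglion cell markers, 8 of 8 oligodendrocyte markers and 7 of 7 microglial markers were higher, and their part in the result was not tested.

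**Figure D3:**
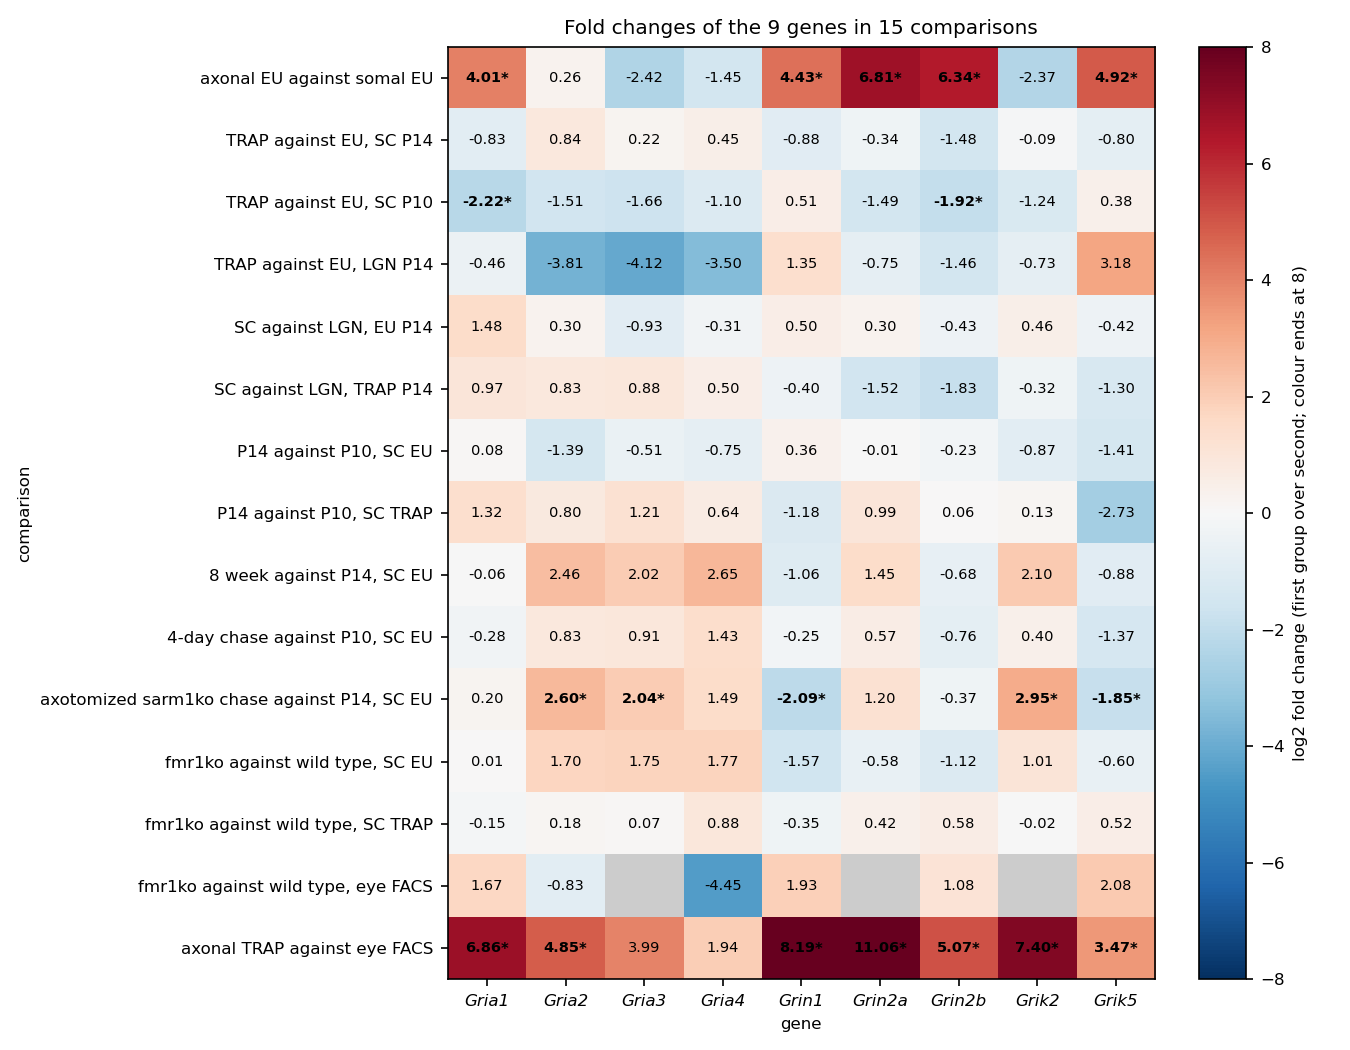
log2 fold change of each of the 9 genes (columns) in 15 comparisons (rows), coloured from blue (lower) to red (higher) with the colour scale ending at 8. An asterisk marks edgeR adjusted p under 0.05, and grey marks a gene that was not tested. Calls sit in 4 rows: 5 in axonal EU against somal EU, 7 in axonal TRAP against eye FACS, 5 in sarm1ko against P14 and 2 in TRAP against EU at P10.

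Comparing TRAP with EU asks how far labelled transcripts present in SC were also bound by tagged ribosomes. At P10 Gria1 and Grin2b were lower in TRAP and none was higher, against 6.38% of 15733 genes called higher and 11.1% called lower. Gria1 had 112, 82.9 and 23.8 CPM in TRAP and 410, 284 and 328 CPM in EU, with no overlap (-2.22 ± 0.52, adjusted p = 0.0168). Grin2b had 41.9, 123 and 44.0 against 355, 232 and 206 CPM (-1.92 ± 0.49, adjusted p = 0.0227), again without overlap. Neither call was firm: that of Gria1 was lost without EU replicate 1, 2 or 3 or TRAP replicate 2 (-2.24 to -2.06, adjusted p from 0.051 to 0.07), and that of Grin2b without EU replicate 1 or 2 or TRAP replicate 3 (-1.87 to -1.52, adjusted p from 0.069 to 0.096) and with a length trend removed (-1.14, adjusted p = 0.093). Gria2 (65.0, 65.3 and 19.6 against 135, 83.9 and 209 CPM, -1.51 ± 0.52, adjusted p = 0.0685) and Gria3 (8.41, 8.30 and 1.21 against 13.9, 19.9 and 22.7 CPM, -1.66 ± 0.69, adjusted p = 0.125) passed unadjusted p under 0.05 only. The remaining folds ran from -1.49 (Grin2a) to 0.51 (Grin1), and the median over the 9 was -1.49 against -0.08 over all genes. Among them Grik2 (-1.24) passed the filter on low counts only through the EU libraries, so its direction supports nothing.

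At P14 edgeR called 0 of 9 in TRAP against EU of SC, 3 had unadjusted p under 0.05, and DESeq2 called 1 and limma 2. Over all genes edgeR called 5.73% of 16277 higher and 8.64% lower, DESeq2 1972 higher and 2806 lower, and limma 1385 and 1267. Grin2b had 30.3, 144 and 64.3 CPM in TRAP and 166, 269 and 229 CPM in EU (-1.48 ± 0.51, adjusted p = 0.0778), and was called in 6 alternatives, among them DESeq2 (-1.47, adjusted p = 0.048) and the fit of all 5 P14 libraries (-1.85, adjusted p = 0.035). Grin1 (137, 180 and 201 against 332, 400 and 220 CPM, -0.88 ± 0.35, adjusted p = 0.119) and Gria1 (149, 202 and 245 against 258, 477 and 325 CPM, -0.83 ± 0.36, adjusted p = 0.153) were the others with unadjusted p under 0.05. These 3 were picked by small p, and the share of all genes without overlap is not given here. The other 6 folds lay between -0.80 and 0.84, with a median of -0.34 over the 9 against -0.01 over all genes.

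The ratio of TRAP to EU was compared between the ages as an interaction, in which 0 of 9 genes were called by edgeR, DESeq2 or limma. Of all 18660 genes edgeR called 0% in either direction, DESeq2 123 higher and 86 lower, and limma 9 and 3. Gria2 (2.31 ± 0.96, adjusted p = 0.42) and Grin1 (-1.44 ± 0.58, adjusted p = 0.412) had unadjusted p under 0.05 in edgeR. Gria2 was called with no filter (2.28, adjusted p = 0.023) and without SC EU P14 replicate 5 (3.69, adjusted p = 0.049).

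Few genes of the 5 related lists were called between TRAP and EU. Dlg4, the scaffold PSD-95, stood at -2.25 at P10 (adjusted p = 0.0115) and -1.80 at P14 (adjusted p = 0.0192). At P10 1 of 9 other ionotropic subunits, 2 of 14 auxiliary subunits (Shisa7 -2.0, Cacng4 -1.22) and 2 of 8 anchoring partners (Grip1 -1.70 and Dlg4) were lower. At P14 the numbers were 1 of 9, 1 of 14 (Cnih2 -1.91) and 2 of 8 (Grip2 -1.98 and Dlg4), and no gene of the 5 lists was higher at either age, nor any metabotropic receptor or transporter lower. Of 8 dendritically localised mRNAs 3 were lower in TRAP at each age, Camk2a and Shank1 among them both times, and their part in the result was not tested.

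In LGN the TRAP libraries held lower levels of Gria2, Gria3 and Gria4 than the EU libraries, but 0 of 9 genes were called by edgeR. Unadjusted p was under 0.05 for 5. DESeq2 and limma called 3 each. Over all genes edgeR called 0.235% of 16561 higher and 1.17% lower, DESeq2 936 higher and 2979 lower, and limma 238 and 2500. Gria4 had 3.41, 27.7 and 3.31 CPM in TRAP and 141 and 120 CPM in EU (-3.50 ± 1.01, adjusted p = 0.0609). Gria2 had 12.1, 52.7 and 0.517 against 470.5 and 144 CPM (-3.81 ± 1.28, adjusted p = 0.0858), and Gria3 4.80, 24.2 and 0.103 against 278 and 61.3 CPM (-4.12 ± 1.40, adjusted p = 0.0901). Grik5 went the other way, with 124, 21.2 and 320 against 17.0 and 17.2 CPM (3.18 ± 1.06, adjusted p = 0.0841). Grin2b had 145, 147 and 89.8 against 496 and 204 CPM (-1.46 ± 0.62, adjusted p = 0.157). These 5 were picked by small p, and the share of all genes without overlap between TRAP and EU is not given here. With the GC trend removed the folds were -0.04 for Gria2, -1.49 for Gria3, -2.05 for Gria4, 0.14 for Grik5 and 0.27 for Grin2b. RLE size factors moved the median of all genes by -0.23 and called 0 of the 9. The median over the 9 was -0.75 against -0.24 over all genes, and 0 genes of the 5 related lists were called.

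Between the target regions no receptor gene was called. SC EU replicates 1 and 2 against LGN EU gave 0 of 9 by edgeR, DESeq2 and limma, and 0 with unadjusted p under 0.05. Of all genes edgeR called 0% of 15448 in either direction and limma 0, while DESeq2 called 56 higher and 46 lower and the replicate block 35 and 45. The smallest p was that of Gria1, with 403 and 369 CPM in SC and 188 and 88.3 CPM in LGN (1.48 ± 0.69, adjusted p = 0.9999). In TRAP libraries of the same regions 0 of 9 were called by the 3 tools. Of all genes edgeR called 0% of 15551 in either direction, while DESeq2 called 35 higher and 35 lower, limma 0 and 1, and the replicate block 25 and 65. Grin2b had 46.2 and 19.2 CPM in SC and 129, 131 and 88.5 CPM in LGN, without overlap (-1.83 ± 0.64, adjusted p = 0.9999), and was the only gene of the 9 with unadjusted p under 0.05. The other folds ran from -0.93 to 0.50 in EU and from -1.52 to 0.97 in TRAP. In TRAP Grik2 passed the filter on low counts only through the LGN libraries. With 2 libraries in a group, intervals are wide and a missing call does not show that the regions are alike.

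Between P10 and P14 the clearest difference was in Grik5. In SC EU it had 58.1, 43.9 and 37.5 CPM at P14 and 167, 89.2 and 115 CPM at P10, without overlap (-1.41 ± 0.34, adjusted p = 0.0567). It was the only one of the 9 with unadjusted p under 0.05, edgeR called 0 and limma 0, and DESeq2 called Grik5 (-1.41, adjusted p = 0.0077), as did the fits with no filter, the GC trend removed (-1.34, adjusted p = 0.036), the replicate block (-1.35, adjusted p = 0.029) and without P14 replicate 5 (-1.27, adjusted p = 0.04). Over all genes edgeR called 0.91% of 16262 higher and 1.12% lower, DESeq2 676 higher and 950 lower, and limma 158 and 331. Without P14 replicate 5, 4 of the 9 were called lower. Over the fits without single libraries the number of all genes called ran from 29 to 2092, against 330 in the main fit. The other folds ran from -1.39 (Gria2) to 0.36 (Grin1), and the median was -0.51 against 0.03 over all genes.

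In SC TRAP 0 of 9 were called at P14 against P10 by edgeR and limma and 1 by DESeq2, and edgeR called 0% of 15752 genes in either direction while DESeq2 called 190 higher and 558 lower. Grik5 again was lowest, with 41.8, 17.0 and 22.4 CPM at P14 and 34.2, 77.6 and 428 CPM at P10 (-2.73 ± 0.83, adjusted p = 0.202). Its groups overlapped, and without P10 replicate 3 the fold was -1.01. DESeq2 gave Grik5 an adjusted p of 0.013. Grin1 (133, 178 and 199 against 206, 276 and 674 CPM, -1.18 ± 0.49, adjusted p = 0.304) and Gria1 (145, 200 and 243 against 121, 90.1 and 25.5 CPM, 1.32 ± 0.53, adjusted p = 0.299) did not overlap between ages. The remaining folds lay between 0.06 and 1.21, with a median of 0.64 over the 9 against 0.02.

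A 4-day chase after labelling at P10 asks which labelled transcripts persist, and 0 of 9 genes were called by edgeR or limma. DESeq2 called 1, and edgeR called 0.00597% of 16746 genes higher (1 gene) and 0% lower, while DESeq2 called 435 higher and 521 lower. Unadjusted p was under 0.05 for 5 genes, and the share of all genes under that p is not given here. Grik5 had 52.9, 67.9 and 47.0 CPM after the chase against 199, 105 and 130 CPM at P10 (-1.37 ± 0.31, adjusted p = 0.151; DESeq2 adjusted p = 0.0061). Grin2b was also lower, with 130, 194 and 205 against 396, 266 and 230 CPM (-0.76 ± 0.31, adjusted p = 0.237). The other direction was seen in the AMPA subunits Gria2, Gria3 and Gria4, but not in Gria1 (-0.28 ± 0.28, edgeR adjusted p = 0.614). Gria2 had 300, 266 and 288 against 150.2, 96.2 and 234 CPM (0.83 ± 0.33, adjusted p = 0.231). Gria3 had 37.5, 35.8 and 46.4 against 15.5, 22.8 and 25.4 CPM (0.91 ± 0.33, adjusted p = 0.206). Gria4 had 146, 46.0 and 44.3 against 12.9, 34.1 and 40.8 CPM (1.43 ± 0.53, adjusted p = 0.214). With the GC trend removed Gria2 stood at -0.18, and the lean was -0.71 to 0 after the chase and 0.03 to 0.77 at P10. The chase group is also 4 days older than the P10 group, so persistence and age cannot be told apart.

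At 8 weeks against P14 edgeR, DESeq2 and limma called 0 of 9. Of all 16942 genes edgeR called 0% in either direction, while DESeq2 called 982 higher and 91 lower and limma 1 and 1. Gria4 alone had unadjusted p under 0.05, with 111, 143 and 3.65 CPM at 8 weeks and 8.41, 5.08 and 27.5 CPM at P14 (2.65 ± 1.12, adjusted p = 0.528). The 8-week replicate 3 was far below the other two and had a GC lean of 1.55 against -1.52 and -2.15. Without it Gria4 had 3.23 (adjusted p = 0.023), and 4 of the 9 genes were called, 2 higher and 2 lower. Over the fits without single libraries the number of all genes called ran from 0 to 3385. The other folds ran from -1.06 (Grin1) to 2.46 (Gria2).

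Shares within a family need no scaling between libraries, and the subunit exchange known for NMDA receptors was examined as Grin2a over the sum of Grin2a and Grin2b TPM in SC EU. The share was 7.1%, 17.9% and 4.0% at P10, 41.8%, 23.6% and 31.2% in P14 replicates 3 to 5, and 49.7%, 55.5% and 11.6% at 8 weeks. By TPM all P10 libraries were below these P14 libraries, and 8-week replicate 3 fell among the P10 values. From estimated counts, which are not divided by transcript length, the share was 4.1%, 10.8% and 19.7% at P10 and 9.0%, 5.9% and 20.3% in P14 replicates 3 to 5, and the ages overlapped. Means by TPM were 9.7%, 32.2% and 38.9% (exact permutation test over 1680 arrangements, p = 0.132, adjusted over 3 shares 0.346, smallest possible p = 0.0036). Without 8-week replicate 3 the difference between 8 weeks and P10 was 42.9 percentage points in place of 29.3, against 17.8 from estimated counts of all libraries. The exact permutation test over the 3 ages without that replicate gave adjusted p = 0.0321. The same test without any other single library gave adjusted p from 0.279 to 0.6, and with all 5 P14 libraries 0.238. P14 replicates 1 and 2, from the other title series, had 48.2% and 57.3%. After the 4-day chase the share was 39.7%, 21.8% and 28.7% by TPM, above all P10 libraries, but 37.3%, 16.6% and 16.8% from estimated counts, where replicates 2 and 3 were below P10 replicate 3.

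The Gria2 share of AMPA subunit TPM was 29.1%, 25.1% and 42.0% at P10, 10.5%, 2.9% and 25.7% at P14 and 52.3%, 47.2% and 6.0% at 8 weeks (exact permutation test, p = 0.346, adjusted p = 0.346). After the chase it was 48%, 45.4% and 47.6%, the narrowest group. Grik5 took 94.6%, 78.0% and 88.4% of kainate TPM at P10, 95.3%, 98.3% and 54.8% at P14 and 27.4%, 14% and 99.5% at 8 weeks (exact permutation test, p = 0.329, adjusted p = 0.346). Without 8-week replicate 3 the Gria2 share differed by 17.7 percentage points between 8 weeks and P10, and the Grik5 share by -66.3 points. The exact permutation tests over the 3 ages without that replicate gave adjusted p = 0.0321 for Gria2 and 0.0714 for Grik5. Without any other single library these tests gave adjusted p from 0.279 to 0.659 for Gria2 and from 0.279 to 0.736 for Grik5. Gria2 is GC-poor and Grik5 GC-rich, and 8-week replicate 3 had the highest lean of its group, as did P14 replicates 3 and 4 of theirs, whose Gria2 shares were the lowest. The part of base composition in these shares was not tested.

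**Figure D4:**
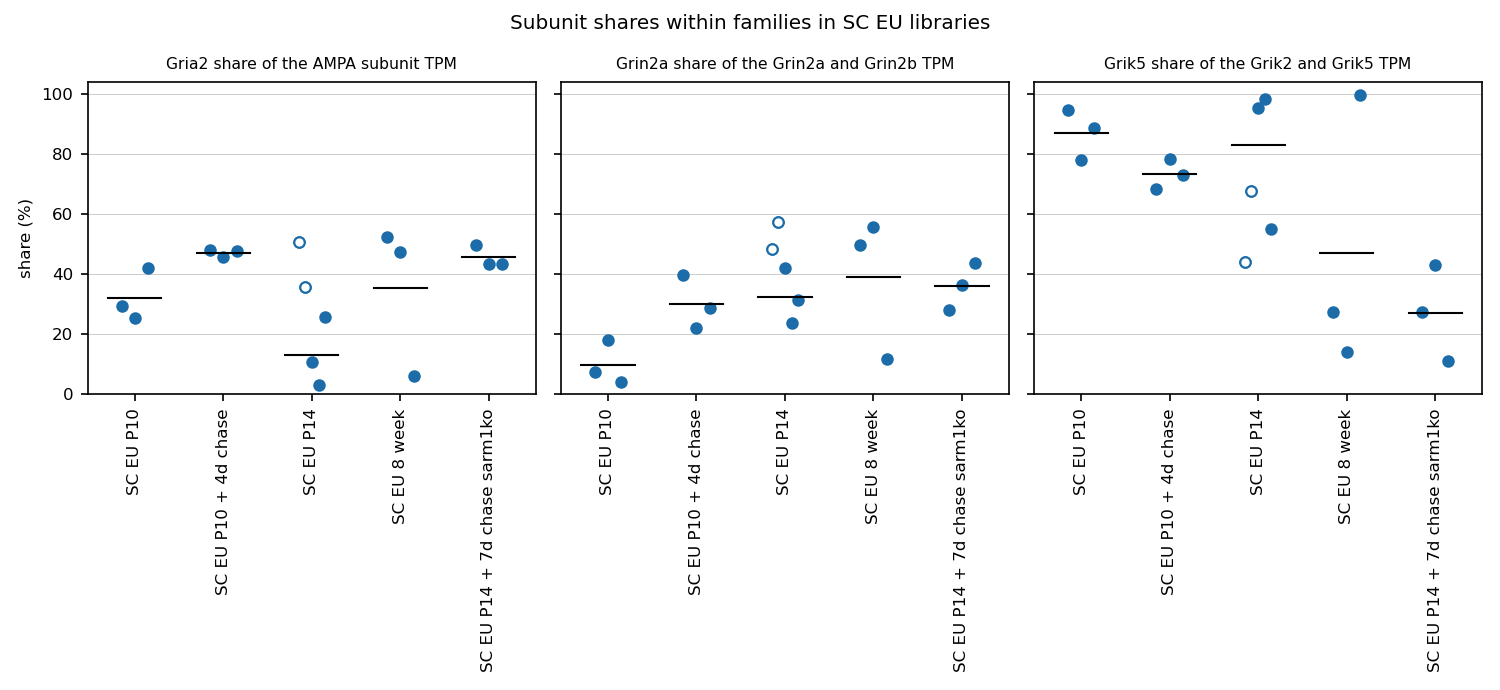
Share in percent (vertical axis) of Gria2 in AMPA, Grin2a in Grin2a plus Grin2b and Grik5 in Grik2 plus Grik5 TPM in 5 SC EU groups, 1 point per library, with open points for P14 replicates 1 and 2 and a bar at the mean of the filled points. By TPM, as plotted, the Grin2a share is 4.0% to 17.9% at P10 and 23.6% to 41.8% in P14 replicates 3 to 5, while from estimated counts these ranges overlap (4.1% to 19.7% and 5.9% to 20.3%). The 8-week replicate 3 lies apart from the other two in all 3 panels.

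The axotomized sarm1ko libraries, whose mice lack an enzyme that drives axon degeneration, were compared with wild-type P14 SC EU, and genotype, axotomy and the 7-day chase cannot be told apart. Gria2, Gria3 and Grik2 were higher and Grin1 and Grik5 lower, against 16.8% of 17171 genes called higher and 20.8% lower. Grin1 had 53.4, 52.0 and 51.5 CPM in sarm1ko and 234, 283 and 152 CPM at P14 (-2.09 ± 0.31, adjusted p = 0.00224). Grik5 had 9.02, 9.84 and 9.07 against 42.8, 31.9 and 26.1 CPM (-1.85 ± 0.37, adjusted p = 0.0051). Both sets of libraries were far apart for these genes, with the 3 sarm1ko values nearly equal. Gria2 rose from 19.5, 8.32 and 83.2 to 246, 208 and 217 CPM (2.60 ± 0.68, adjusted p = 0.015), Gria3 from 3.55, 2.60 and 20.9 to 48.7, 31.0 and 31.6 CPM (2.04 ± 0.71, adjusted p = 0.0447), and Grik2 from 1.48, 0.533 and 12.7 to 43.7, 14.2 and 55.1 CPM (2.95 ± 0.99, adjusted p = 0.039). P14 replicate 5 was the highest of its group for all 3 genes but did not reach the sarm1ko libraries. Gria4 (40.6, 16.1 and 32.4 against 6.84, 4.06 and 20.9 CPM, 1.49 ± 0.61, adjusted p = 0.077) and Grin2a (42.7, 46.4 and 58.0 against 11.6, 12.1 and 40.3 CPM, 1.20 ± 0.49, adjusted p = 0.0767) passed unadjusted p under 0.05 only. Gria1 (0.20) and Grin2b (-0.37) had the smallest folds, and the median over the 9 was 1.20 against 0.16 over all genes.

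The genes called higher were GC-poor and those called lower GC-rich, and the GC lean was -1.39, -1.15 and -1.39 in sarm1ko against 1.35, 1.61 and 0.15 at P14. With the GC trend removed none of the 5 calls remained: Gria2 stood at 0.55 (adjusted p = 0.31), Gria3 at 0.27 (0.68), Grik2 at 1.10 (0.26), Grin1 at -0.31 (0.37) and Grik5 at 0.11 (0.83). Grin2b alone was then called (-1.71, adjusted p = 0.017), and the number of called genes went from 6453 (2886 higher and 3567 lower) to 2933 (993 higher and 1940 lower). With all 5 P14 libraries Grin1 alone was called, Gria2 stood at 0.96 (adjusted p = 0.49), Grik5 at -1.34 (adjusted p = 0.24) and Grik2 at 2.63 (adjusted p = 0.078). P14 replicates 1 and 2 come from the title series of the LGN libraries. Without sarm1ko replicate 1, and without P14 replicate 3, only 2 of the 9 were called, and without sarm1ko replicate 2 or 3 the number of the 9 was 3. Over the fits without single libraries all genes called ran from 2680 to 10376. In limma on TPM 3 of the 9 were called, with Grin1 at -1.53 (adjusted p = 0.063). Ganglion cell markers summed to 330.2 to 1272 TPM in sarm1ko and 3350 to 5678 TPM at P14, 4 of 10 tested were lower, and 5 of 6 markers of oligodendrocyte precursors were lower. Their part in the result was not tested.

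Most related glutamate genes that were called were lower in sarm1ko. Other ionotropic subunits gave 0 higher and 3 lower of 9 (Grin2d -2.99, Grin2c -3.04 and Grik3 -1.22), auxiliary subunits 0 and 6 of 14 (Cnih2 -3.00, Cacng4 -2.56 and Gsg1l -2.18 among them) and anchoring partners 0 and 3 of 8 (Dlg3 -1.49, Grip2 -1.62 and Grip1 -1.16). Metabotropic receptors gave 2 higher and 2 lower of 7 tested, with Grm7 at 2.82 and Grm4 and Grm2 at -2.28 and -2.23. The vesicular transporter Slc17a8 was higher (5.26, adjusted p = 0.0141), the only one of 6 transporters called.

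**Figure D5:**
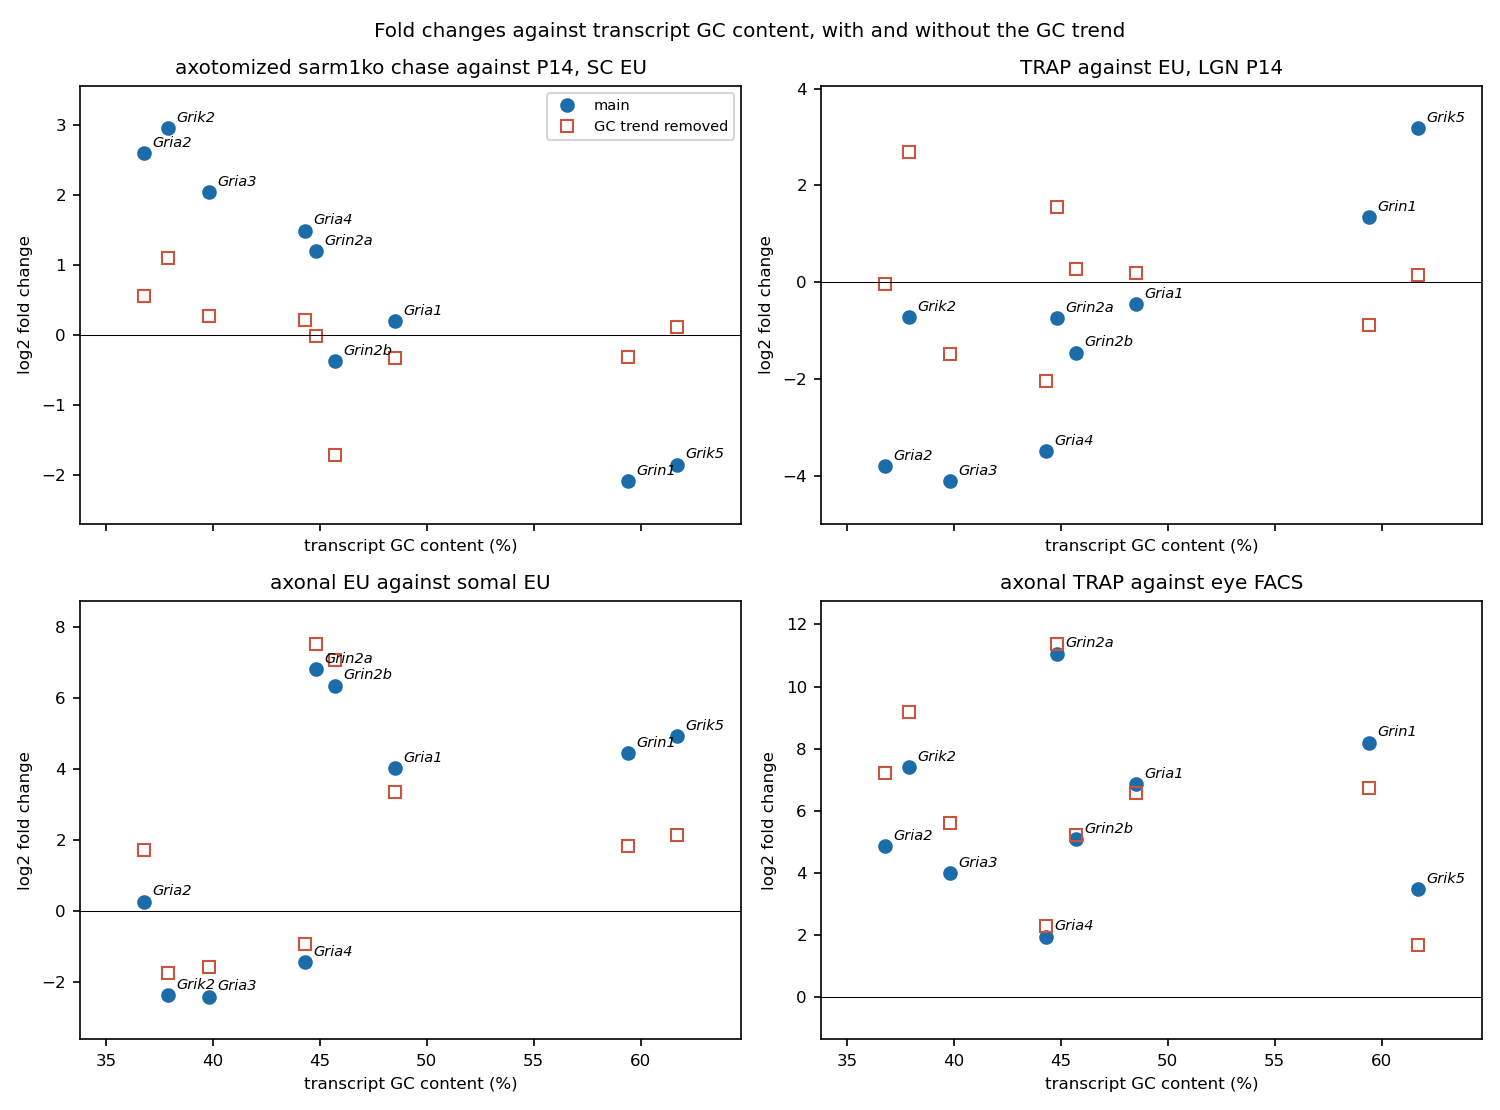
log2 fold change (vertical axis) against GC content of the longest transcript in percent (horizontal axis) for the 9 genes in 4 comparisons, with filled circles for the main values and open squares after removal of a GC trend over all genes. In sarm1ko against P14 the filled circles run from 2.95 for GC-poor Grik2 to -2.09 for GC-rich Grin1, and the squares of the same genes stand at 1.10 and -0.31.

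Libraries labelled fmr1ko were set against wild type in 3 kinds of library, to examine the loss of an RNA-binding protein that represses translation, although Fmr1 itself did not follow the label. In SC EU edgeR called 0 of 9, with 4 at unadjusted p under 0.05, while DESeq2 and limma called 2 each. Over all genes edgeR called 0.816% of 16546 higher and 0.29% lower, DESeq2 1605 higher and 909 lower, and limma 334 and 337. Grin1 had 92.3, 47.1 and 140 CPM under the label and 283, 349 and 194 CPM in wild type (-1.57 ± 0.42, adjusted p = 0.0812; DESeq2 -1.60, adjusted p = 0.013). Grin2b had 92.8, 72.3 and 102 against 142, 235 and 202 CPM (-1.12 ± 0.30, adjusted p = 0.0813; DESeq2 -1.15, adjusted p = 0.021). Neither overlapped between the groups. Gria2 (150, 193 and 113 against 23.6, 10.3 and 106 CPM, 1.70 ± 0.72, adjusted p = 0.191) and Gria4 (55.0, 61.1 and 19.8 against 8.29, 5.01 and 26.7 CPM, 1.77 ± 0.66, adjusted p = 0.152) had higher values. Gria4 overlapped, and wild-type replicate 5 was near the labelled libraries for both. Without that replicate 6 of the 9 were called, 4 higher and 2 lower. Over the fits without single libraries the number of all genes called ran from 0 to 3497, against 183 in the main fit. With the GC trend removed Grin2b alone was called (-1.91, adjusted p = 0.043). The lean was -0.89 to 0.05 under the label.

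In SC TRAP edgeR, DESeq2 and limma called 0 of 9 under the fmr1ko label, and 0 had unadjusted p under 0.05. All but Gria4 and Grik5, 7 genes, passed the filter on low counts through the wild-type libraries alone. With the replicate that stood apart in the group the SE were wide, as for Gria1 (-0.15 ± 1.88). A missing call does not show that the groups are alike. Of all 16115 genes edgeR called 0% in either direction, while DESeq2 called 1894 higher and 1496 lower, limma 212 and 179, and edgeR with all 5 wild-type libraries 958 in all. The smallest p was that of Gria4, with 66.5, 8.79 and 53.1 CPM against 38.9, 6.13 and 24.8 CPM (0.88 ± 0.94, adjusted p = 0.746). Without the replicate that stood apart its fold was 1.34 (adjusted p = 0.26) and 0 of 9 were called. In eye FACS libraries 6 of 9 genes could be tested, Gria3, Grin2a and Grik2 being under the filter on low counts. The 3 tools called 0 of them, 0 had unadjusted p under 0.05, and edgeR called 0.0528% of 15165 genes higher and 0.00659% lower. Gria4 had 0, 0 and 0.696 CPM under the label against 5.91, 3.69 and 5.88 CPM (-4.45 ± 2.10, adjusted p = 0.451). It passed the filter on low counts only through the wild-type libraries, so it had to be lower under the label. Its direction and missing overlap therefore support nothing. In all, 5 of the tested genes passed through 1 group alone. In no comparison of libraries labelled fmr1ko was a gene of the 5 related lists called by edgeR.

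By the pattern over all 15 group means, the genes most like Grin1, which has the highest mean over all SC libraries, included Chst1 with Pearson r = 0.980 of log2(TPM + 1) among 17867 genes. L1cam (0.980), Ptpn5 (0.979) and Rnf112 (0.976) were also among the 5 nearest. Of the other 8 receptor genes Grik5 was nearest (0.916, rank 379), followed by Grin2b (0.885, rank 741) and Gria1 (0.844, rank 1232), and Gria4 was farthest (0.612, rank 4295). These values are a description over groups that share the contrast of eye cells with brain tissue.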

How the data were processed

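The submitters' processing notes name Salmon and the build mm10. No version is given in the sources used here. The authors deposited a table of estimated counts (expected counts, not all whole) and a table of TPM per Ensembl gene, and 54097 of 54331 genes matched a symbol in GENCODE M21. Groups follow titles, sources and characteristics. P14 SC groups are replicates 3 to 5 (their title codes continue those of the other SC groups), except against LGN, where replicates 1 and 2 were used.

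Counts were rounded, filtered with filterByExpr, scaled with TMM and tested with edgeR 4.0.16 (R 4.3.3, quasi-likelihood F test, two-sided), 1 fit per comparison. P-values were adjusted over all tested genes by Benjamini-Hochberg, and a gene was called at adjusted p under 0.05. The code was tested on simulated data. Levels between genes are TPM, and differences of a gene are CPM. Alternatives were RLE factors, no filter, DESeq2 1.42.0, limma 3.58.1 on log2(TPM + 1), removal of a trend on transcript length, all 5 P14 libraries, a replicate block and leaving out each library. Removal of a GC trend and the alternatives of the interaction were added after seeing the data.

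The 9 genes, the related lists and the tests were chosen with earlier results of these data known. Folds are printed for genes with unadjusted p under 0.05 (or the smallest p), and related lists name up to 3 called genes by adjusted p. The shares of all genes with unadjusted p under 0.05 or without overlap are not given here. Such counts of the 9 genes are description and support nothing. Not all genes and sequences that these rules pick are reported here. Labels do not say that libraries of a group are separate animals, and p-values then measure only how far libraries differ, which may be technical. Intervals cover counting error only, since the labels name no molecular identifiers. As the strand setting is not stated, reads of overlapping antisense genes cannot be told apart. Immunopanned cells without EU capture entered no comparison.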

Additional observations from a re-analysis of the deposited data

Results flagged for a closer look

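SC EU P14 replicate 1 lay far from the 4 other libraries of its group in 3 AMPA subunits, with 313 TPM of Gria2, 60.5 TPM of Gria3 and 111 TPM of Gria4. That library had the lowest total of the series, 2558141 estimated counts, and a GC lean of -1.61, the lowest of its group, and it entered only the comparison with LGN and the fits of all 5 libraries. SC TRAP P14 replicate 2 stood apart in Grin1, with 723 TPM against 48.3 to 238 in the other 4, and its GC lean of 1.46 was the highest of its group. Of 18 sets of 1 gene in a group of 5 libraries 4 held such a value, where chance gives about 1 in 20. The 3 AMPA values come from 1 library and are not independent.

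Immunopanned cells without EU capture, which entered no comparison, held low levels of 6 receptor genes that could be told from a count of 0. Mean TPM was 1.36 for Gria2, 1.18 for Grin1, 1.13 for Gria1, 0.429 for Gria3, 0.221 for Grik2 and 0.132 for Grik5. The mean correlation of a library with the others of that group was 0.16 for replicate 1. It was 0.571 and 0.56 for replicates 2 and 3, means that include the correlation with replicate 1. Replicate 1 held 3.08 TPM of Grin1 against 0.195 and 0.277, and 2.96 TPM of Gria1 against 0.284 and 0.141. Its Gria2 was the lowest of the group (0.676 against 2.27 and 1.14), and its Gria3 (0.433) lay between the others (0.607 and 0.246).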

How the results depend on the processing

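Of 718 alternative values of 53 fold changes of the 9 genes, 597 kept direction and side of the threshold, 47 lost a call, 66 gained one and 8 changed sign. The sign changes were Grin2b in LGN TRAP against EU (-1.46; 0.49 with the length trend and 0.27 with the GC trend removed), Gria2 in the 4-day chase (0.83; -0.18 with the GC trend removed) and 3 genes in sarm1ko: Gria4 (1.49; -0.1 with all 5 P14 libraries), Grin2a (1.2; -1.24 in limma, -0.02 with the length trend and -0.02 with the GC trend removed) and Grik5 (-1.85; 0.11 with the GC trend removed). For all of these the cause was not tested.

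The number of the 9 genes called changed as follows, and the number of all genes called changed too. Over the alternatives, all genes called ran from 21 to 2092 for P14 against P10 in EU, where the main fit called 330. They ran from 0 to 3497 in SC EU labelled fmr1ko (main fit 183) and from 0 to 3385 at 8 weeks (main fit 0). In LGN TRAP against EU they reached 3915 with DESeq2 and 2292 with no filter (main fit 232). For TRAP against EU in SC they ran from 718 to 4778 at P14 (main fit 2340) and from 1073 to 4557 at P10 (main fit 2742). They ran from 923 to 6262 in axonal EU against somal EU (main fit 3485) and from 1011 to 10376 in sarm1ko (main fit 6453). In axonal EU against somal EU the number of the 9 genes called was 3 in place of 5 with the GC trend removed and 2 to 5 without single libraries. In TRAP against EU of SC at P14 it was 1 in place of 0 with no filter, DESeq2, the GC trend removed, all 5 P14 libraries or the replicate block, 2 with limma and 0 to 2 without single libraries. At P10 it was 4 in place of 2 with no filter or limma, 1 with the length trend removed and 0 to 2 without single libraries. In LGN it was 4 in place of 0 with no filter, 3 with DESeq2, limma or the length trend removed and 0 to 1 without single libraries. For P14 against P10 in EU it was 2 in place of 0 with no filter or the replicate block, 1 with DESeq2 or the GC trend removed and 0 to 4 without single libraries. In TRAP it was 1 with no filter or DESeq2, where 833 and 748 of all genes were called in place of 0. Without single libraries it was 0 to 4 at 8 weeks. For the chase it was 2 with no filter and 1 with DESeq2, where 1070 and 956 of all genes were called in place of 1. In sarm1ko it was 3 in place of 5 with limma, 1 with the GC trend removed or all 5 P14 libraries and 2 to 7 without single libraries. In SC EU labelled fmr1ko it was 5 in place of 0 with no filter, 2 with DESeq2 or limma, 1 with the GC trend removed and 0 to 6 without single libraries. Of all genes 1881 were called there with no filter, 2514 with DESeq2 and 671 with limma. In the interaction the number of the 9 was 1 with no filter, where 335 of all genes were called in place of 0, and 0 to 1 without single libraries. The Gria2 share at 8 weeks minus P10 was 3.1 points, and -5.5 to 17.7 without single libraries, and the Grin2a share 29.3, with 17.8 from estimated counts and 21 to 42.9 without single libraries. Without SC EU P10 replicate 2 and 8-week replicates 1 and 2 the Gria2 difference was -0.4, -5.5 and -2.9.

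Equal digits in the title codes are not stated to mark an animal or day, and in no comparison with 3 pairs did every pair of libraries with the same digit deviate together (correlation over 0.1). The replicate block, beside the changes above, gave 7 of 9 in sarm1ko and 6 in axonal TRAP against eye FACS, within 1.5 times the value without it. SC and LGN libraries share only 2 digits each, with correlations of 0.33 and 0.33 in EU and 0.42 and 0.37 in TRAP, each library correlating best with its own digit. In a group of 2 libraries the deviations from the group mean mirror each other. The 2 EU values are therefore 1 value, and the best matches in EU follow from its sign. The 2 SC TRAP libraries are mirrored in the same way, so the TRAP pairs are not independent. Between SC and LGN the block called 80 genes in EU and 90 in TRAP in place of 0, and 0 of the 9 in both. No paired analysis was possible for axonal EU against somal EU because the codes of the somal libraries carry no plain series of digits, and none was run for the interaction. Leaving out a library leaves 2 libraries or 1 in a group, and a lone library is then assumed to vary like the other group. Eye FACS libraries held 28151594 to 48263706 counts, and the part of the total in the low values of Grin2a, Grik2 and Gria3 there was not tested. The lowest total, 2558141, limits SC EU P14 replicate 1.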
